A study of Homo sapiens with 22 samples.

Results

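The IRE1 and XBP1 branch of the unfolded protein response was followed through 5 genes, taken by name from the 58278 gene entries counted: ERN1, XBP1, RTCB, RTRAF and DDX1. All 5 were found, and all 5 passed the filter on low counts in RNA-Seq and in Ribo-Seq. ERN1 encodes the sensor IRE1, XBP1 the transcription factor whose mRNA that sensor cuts, RTCB the ligase that rejoins the cut mRNA, and RTRAF and DDX1 encode further subunits of the tRNA ligase complex that holds RTCB. The cells were LN308, an established glial line from an astrocytoma, given tunicamycin at 2.5 µg/ml for 2 h or 6 h, thapsigargin at 200 nM for 2 h or 6 h, or left untreated (0 h). Tunicamycin blocks the first step of N-linked glycosylation, and thapsigargin blocks the calcium pump that fills the endoplasmic reticulum (ER); both make proteins misfold in the ER. Total RNA (RNA-Seq) and the mRNA fragments protected by ribosomes (Ribo-Seq, footprints) were sequenced, each in 3 libraries of tunicamycin at 2 h, 3 at 6 h, 1 thapsigargin library per time and 3 untreated libraries. A solvent-only control is named in the protocol, but the 0 h libraries are labelled untreated, and solvent controls at the later times were not used here. Whether replicates came from separate cultures is not stated, so the p-values reflect the spread among these libraries, possibly a technical one. All comparisons with untreated cells share the same untreated libraries.

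IRE1 is an ER membrane protein with a lumenal domain that senses unfolded protein and a cytosolic kinase and endonuclease. When it clusters, it cuts a short intron out of XBP1 mRNA in the cytosol. RTCB then joins the exons, with the ligase complex and the cofactor archease, and the shifted reading frame encodes the active factor XBP1s, which turns on genes of folding, translocation, secretion and ER-associated degradation. Counts per gene do not show splicing: cut and uncut XBP1 mRNA fall in the same entry, so every XBP1 value here is a sum over both forms.

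On GRCh38.p14 in RefSeq, ERN1 spans chr17:64039142-64130144, XBP1 chr22:28794560-28800569, RTCB chr22:32387582-32412247, RTRAF chr14:51989546-52010694 and DDX1 chr2:15591868-15631101. All 5 are protein-coding, and their entries in the count files are ENSG00000178607.15, ENSG00000100219.16, ENSG00000100220.11, ENSG00000087302.8 and ENSG00000079785.14. RTRAF overlaps 5886 bases of NID2 and 1039 bases of a long non-coding RNA gene, and the strand setting of the counts is not given in the sources used here, so reads there cannot be told apart. The other 4 genes overlap no other RefSeq gene. XBP1 has a processed copy, XBP1P1, whose RNA-Seq count was 0.272% to 1.69% of the XBP1 count.

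For the 2 genes called in this study, XBP1 and ERN1, the 250 bases before a start are shown. At the XBP1 start shown they carry a complete ER stress response element, and in ERN1 they do not. Sequences are from RefSeq (GRCh38.p14), where promoter windows were found for all 5 genes; they read 5′ to 3′ along the gene, and capitals mark CCAAT and CCACG on either strand.
XBP1, chr22:28800570-28800819, minus strand: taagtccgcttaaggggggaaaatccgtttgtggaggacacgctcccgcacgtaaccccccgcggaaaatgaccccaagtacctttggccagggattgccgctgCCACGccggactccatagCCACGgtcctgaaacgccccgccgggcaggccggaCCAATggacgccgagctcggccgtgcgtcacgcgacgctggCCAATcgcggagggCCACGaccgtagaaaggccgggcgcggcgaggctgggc
ERN1, chr17:64130145-64130394, minus strand: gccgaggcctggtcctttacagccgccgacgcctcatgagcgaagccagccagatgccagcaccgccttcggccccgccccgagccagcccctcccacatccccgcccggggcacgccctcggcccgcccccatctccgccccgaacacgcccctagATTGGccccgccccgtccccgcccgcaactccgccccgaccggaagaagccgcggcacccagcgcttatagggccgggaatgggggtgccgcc
The element, CCAAT and CCACG held apart by 9 bases, lies at -52 to -34 of XBP1 counted from the start shown. A second XBP1 start has CCACG at -81 to -77 and -38 to -34, but no CCAAT and no complete element. It was searched on both strands of 300-base windows (250 bases before and 50 after the start), and 27 of 35116 such windows (0.0769%) hold it. ERN1 has 1 CCAAT, on the opposite strand at -93 to -89, and no CCACG. Of all windows, 34.6% hold CCAAT and 38.1% hold CCACG. RTCB has 1 CCAAT, DDX1 has CCACG only, and RTRAF has both without the 9-base spacing. A match describes letters and does not show that a factor binds there.

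Levels below are CPM (each count divided by its library total, itself scaled by the trimmed mean of M-values, TMM, and set to a common size), as mean ± SD where a group has 3 libraries; they compare 1 gene across libraries and not genes with each other. Fold changes are log2 values ± SE from edgeR's quasi-likelihood test over all genes, and a gene was called at a Benjamini-Hochberg adjusted p under 0.05. The 5 genes had 1517 to 91625 counts per library in RNA-Seq and 69 to 4596 in Ribo-Seq, of library totals of 101371822 to 166586145 and 4387173 to 29183769 counts. In RNA-Seq, untreated replicate 1 stood apart from all other libraries: it lay at 330 on the first principal component against -47.7 to -16.3, and had counts in 53489 entries against 38264 to 40331. The RNA-Seq libraries of tunicamycin replicate 1 and of thapsigargin lay at 61.1 to 116 on the second component, the other libraries at -80.1 to 4.64. Fewer cells and less RNA per cell cannot be told apart in such data. The glial markers VIM, NES, S100B, SOX2 and OLIG2 were detected in every RNA-Seq library (lowest 7.21 CPM), whereas GFAP (0.678 to 3.38 CPM) and AQP4 (at most 0.397 CPM) were near 0. The 7 blood and epithelial markers summed to at most 4.29 CPM, reached in untreated replicate 1.

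XBP1 RNA rose with both drugs. Its untreated libraries had 70.2, 97.9 and 105 CPM, those of tunicamycin at 2 h 169.6, 224 and 232 CPM, and those at 6 h 591, 422 and 475 CPM. The groups at 0 h, 2 h and 6 h did not overlap: every 2 h library was above every untreated one, and every 6 h library above every 2 h one. How many of all genes have groups that separate in this way was not counted, so the order is a description only. At 6 h XBP1 averaged 496 ± 86.2 CPM, against 91.0 ± 18.4 CPM in untreated cells (n = 3 each), a log2 fold change of 2.45 ± 0.26 or 5.45-fold (adjusted p = 0.00162). It stood 48th by p of 41130 genes tested and 116th by size of the 504 called higher. At 2 h the mean was 209 ± 34.2 CPM, with a log2 change of 1.20 ± 0.25 against untreated cells, which did not pass after adjustment (unadjusted p = 0.000649, adjusted p = 0.548). DESeq2 called it (adjusted p = 0.000417), in a fit that called 68 genes against 4 by edgeR. The test on replicates 2 and 3 alone also called it (1.19, adjusted p = 0.000888), where 4.4% of all genes were called.

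ERN1 RNA rose at 6 h of tunicamycin. The untreated libraries had 17.6, 21.5 and 26.4 CPM, the 2 h tunicamycin libraries 11.8, 26.4 and 31.4 CPM, and the 6 h libraries 52.0, 82.0 and 92.2 CPM. The 2 h values lay on both sides of the untreated ones, and all 6 h values lay above both other groups. The share of all genes separated in this way was not counted. ERN1 averaged 75.4 ± 20.9 CPM after 6 h of tunicamycin, against 21.8 ± 4.45 CPM in untreated cells, a log2 change of 1.79 ± 0.37 (3.46-fold, adjusted p = 0.0419). This call sat near the threshold and was lost when any 1 of the 6 libraries was left out (adjusted p 0.0501 to 0.184, log2 change 1.61 to 2.01). At 2 h the log2 change was 0.09 ± 0.36 (adjusted p = 0.936, 95% interval -0.70 to 0.88).

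Of the 5 genes 2 were thus called higher and none lower in RNA after 6 h of tunicamycin, where 1.50% of all 41130 genes were called; the median log2 change of all genes was -0.27. At 2 h 0 of the 5 were called by edgeR (1 at an unadjusted p under 0.05, 1 by DESeq2), where 0.00973% of genes were. Between 6 h and 2 h of tunicamycin the RNA of XBP1 differed by 1.25 ± 0.25 (adjusted p = 0.0571) and that of ERN1 by 1.70 ± 0.37 (0.0740). Neither passed, and 0.742% of all genes did. Both had an unadjusted p under 0.05, and DESeq2 called both, in a fit that called 1583 genes against 305 by edgeR. Deviations of same-numbered libraries of these groups from their group means correlated at 0.414 to 0.676, with no level set that would mark them as paired. With the replicate number as a block both genes were called, XBP1 at 1.27 (adjusted p = 0.0409) and ERN1 at 1.76 (adjusted p = 0.00889). Without untreated replicate 1, 2 of the 5 genes were called between 6 h and 2 h, where 4.79% of all genes were. The block raised the count of all genes called between 6 h and 2 h to 1121, from 305 without it, and that between 6 h and untreated to 1624, from 617, with the same 2 members.

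**Figure D1:**
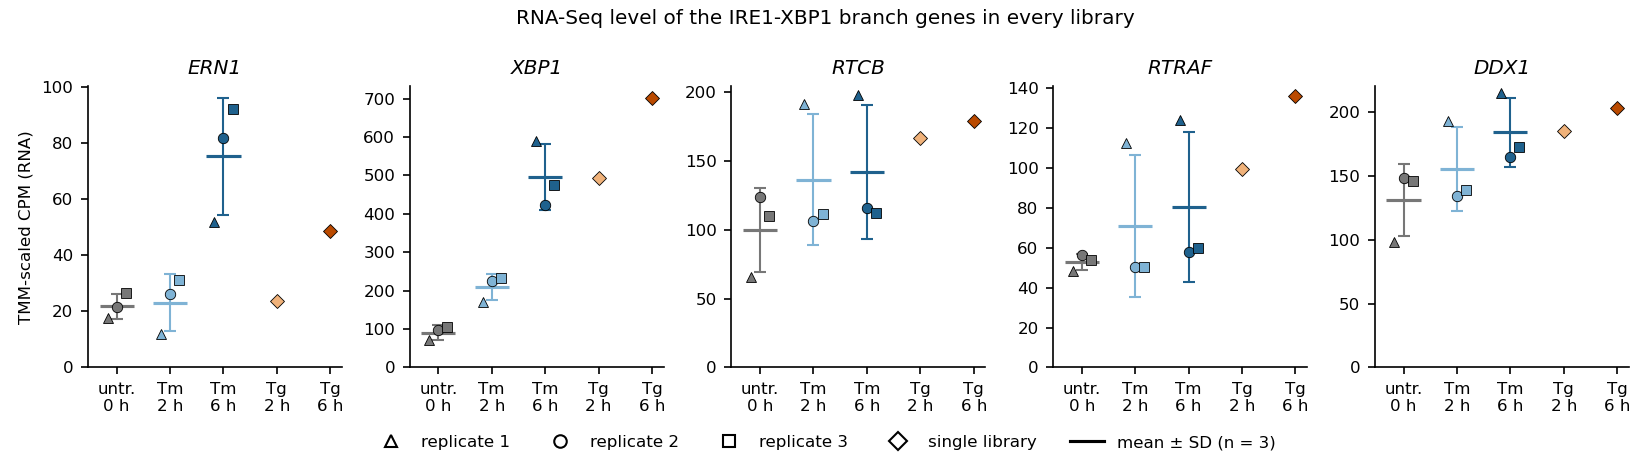
TMM-scaled RNA-Seq CPM (y axis, linear from 0, own scale per gene) of the 5 genes in each of 11 libraries, by treatment and time (Tm, tunicamycin; Tg, thapsigargin; untr., untreated). Points are libraries, bars the mean ± SD of 3 libraries; XBP1 lies at 422 to 591 CPM after 6 h of tunicamycin against 70.2 to 105 CPM untreated, while RTRAF is above 99 CPM only in tunicamycin replicate 1 and the thapsigargin libraries.

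The 3 ligase genes were not called in RNA. RTCB, the catalytic ligase, had 65.4, 124 and 110.2 CPM in untreated replicates 1, 2 and 3, then 192, 106 and 112 CPM at 2 h and 198, 116 and 112 CPM at 6 h of tunicamycin. RTRAF, an RNA-binding subunit, had 48.6, 56.1 and 53.8 CPM untreated, 112, 50.5 and 50.3 CPM at 2 h and 124, 57.7 and 59.7 CPM at 6 h. DDX1, a DEAD-box helicase, had 98.7, 149 and 146 CPM untreated, 193, 135 and 139 CPM at 2 h and 215, 165 and 173 CPM at 6 h. In CPM, tunicamycin replicate 1 was high at both times and untreated replicate 1 was low in all 3 genes. Replicates 2 and 3 differed little between the groups. The place of untreated replicate 1 depends on the scaling: its TMM factor was 1.46, those of the other RNA-Seq libraries 0.904 to 1.06. RTRAF had 9775 counts there of a total of 138227034, against 6956 of 122185746 and 5381 of 101371822 in untreated replicates 2 and 3. By library total alone RTRAF was thus highest in untreated replicate 1. The log2 changes at 6 h were 0.51 ± 0.34, 0.61 ± 0.38 and 0.49 ± 0.25 for RTCB, RTRAF and DDX1 (adjusted p 0.325 to 0.409). With replicates 2 and 3 alone they were -0.01, 0.12 and 0.22 (adjusted p 0.116 to 0.957), so that RTCB changed sign. On those replicates alone DDX1 was called between 6 h and 2 h of tunicamycin (0.31, adjusted p = 0.0295), in a fit that called 25.1% of all genes.

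Ratios between libraries with the same replicate number show the same split. For XBP1 the log2 ratio of 6 h tunicamycin to untreated was 3.07, 2.11 and 2.18 in numbers 1, 2 and 3, and that of 2 h to untreated 1.27, 1.20 and 1.15. For ERN1 the 6 h ratio was 1.57, 1.93 and 1.80, and the 2 h ratio -0.57, 0.30 and 0.25. XBP1 was thus higher in 3 of 3 numbers at both times, and ERN1 in 3 of 3 at 6 h. For RTCB the 6 h ratio was 1.60, -0.09 and 0.03, for RTRAF 1.35, 0.04 and 0.15, and for DDX1 1.12, 0.15 and 0.24. In replicate number 1 each ligase gene had a 6 h ratio above 1, and in numbers 2 and 3 each lay between -0.09 and 0.24. The ratios of number 1 depend on the scaling. The TMM factor was 1.46 in its untreated library and 0.911 in its 6 h library, so by library total alone they are smaller. The position of replicate 1 libraries on the principal components moves with these values; its part in them was not tested.

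**Figure D2:**
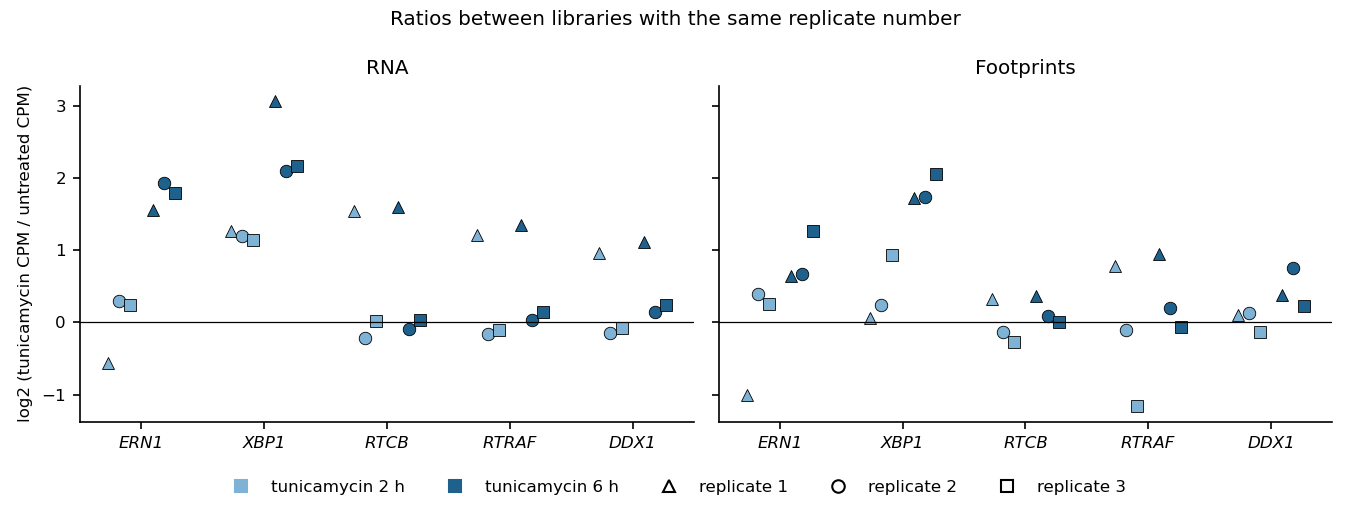
Log2 ratio of TMM-scaled CPM (y axis) between a tunicamycin library and the untreated library with the same replicate number. RNA is on the left and footprints on the right, and each point is 1 pair of libraries. The TMM factor of untreated replicate 1 in RNA-Seq was 1.46. For XBP1 all 3 RNA ratios at 6 h are between 2.11 and 3.07, while for RTCB, RTRAF and DDX1 at 6 h replicate 1 alone has an RNA ratio above 1.

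XBP1 footprints also rose at 6 h of tunicamycin. XBP1 had 131, 141 and 123 footprint CPM in the untreated libraries, 136, 167 and 235 CPM at 2 h of tunicamycin and 433, 472 and 513 CPM at 6 h. The 6 h libraries lay above all untreated and 2 h libraries, and the lowest 2 h library lay within the untreated range. A share over all genes was not counted here either. XBP1 footprints averaged 473 ± 40.0 CPM at 6 h of tunicamycin, against 132 ± 8.97 CPM in untreated cells, a log2 change of 1.85 ± 0.28 (3.59-fold, adjusted p = 0.00806). Against 2 h the change was 1.40 ± 0.27 (adjusted p = 0.0365). At 2 h against untreated it was 0.45 ± 0.27 (adjusted p = 1, interval -0.13 to 1.03).

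ERN1 footprints numbered 38.6, 61.6 and 38.1 CPM in untreated cells, 19.3, 80.7 and 45.7 CPM at 2 h of tunicamycin and 60.3, 98.4 and 91.9 CPM at 6 h. The 6 h and untreated groups overlapped, and the log2 change of 0.86 ± 0.43 did not pass (adjusted p = 0.460). RTCB, RTRAF and DDX1 footprints averaged 103 ± 24.0, 45.4 ± 16.2 and 117 ± 26.6 CPM at 6 h of tunicamycin, against 90.9 ± 11.9, 34.1 ± 2.77 and 86.9 ± 26.5 CPM in untreated cells. Their log2 changes were 0.17, 0.41 and 0.43 with SE 0.28, 0.40 and 0.31, and none was called (adjusted p 0.635 to 0.870). RTRAF rested on the fewest footprints, with 69 counts in tunicamycin 2 h replicate 3.

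In footprints 1 of the 5 genes was thus called at 6 h of tunicamycin against untreated, where 0.840% of 19411 genes were, and 1 of 5 at 6 h against 2 h, where 0.752% were. At 2 h against untreated edgeR called 0 of 5 and 0% of all genes (0 of 5 at an unadjusted p under 0.05, 0 of 5 by DESeq2). The call of XBP1 at 6 h against untreated was lost without untreated replicate 2 (adjusted p = 0.0581), untreated replicate 3 (0.0663) or tunicamycin replicate 3 (0.0560), with log2 changes of 1.79 to 1.90. The call at 6 h against 2 h was lost without tunicamycin 2 h replicate 1 (0.0740) or 2 (0.1995) and without 6 h replicate 1 (0.0835), 2 (0.162) or 3 (0.196), with log2 changes of 1.24 to 1.46.

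**Figure D3:**
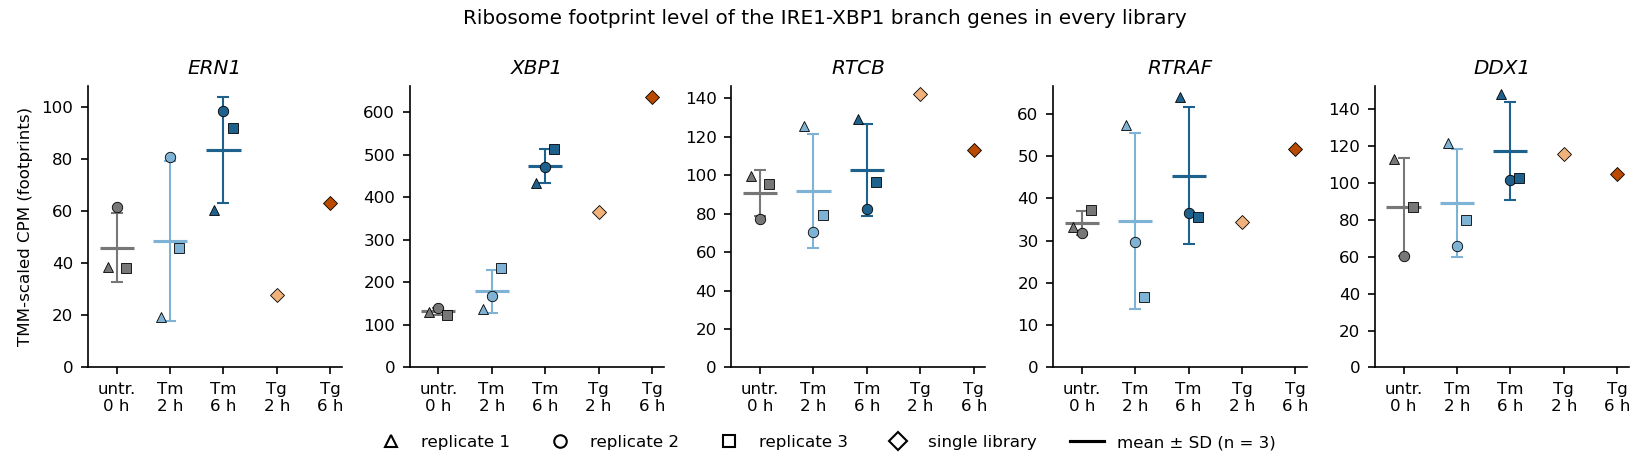
TMM-scaled footprint CPM (y axis, linear from 0, own scale per gene) of the 5 genes in each of 11 Ribo-Seq libraries (Tm, tunicamycin; Tg, thapsigargin; untr., untreated). Points are libraries and bars the mean ± SD of 3; XBP1 lies at 433 to 513 CPM after 6 h of tunicamycin against 123 to 141 CPM untreated.

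Translational efficiency compares the footprint fold change of a gene with its RNA fold change, and was tested as an interaction over all 22 libraries. After 6 h of tunicamycin it was -0.51 ± 0.32 for XBP1 (log2, adjusted p = 1.000, interval -1.18 to 0.16) and -0.86 ± 0.61 for ERN1 (interval -2.15 to 0.44). At 2 h it was -0.66 ± 0.32 for XBP1 and 0.07 ± 0.62 for ERN1. For the ligase genes the values were -0.25, -0.07 and 0.03 at 6 h and -0.33, -0.25 and -0.10 at 2 h, with SE of 0.37 to 0.55. By edgeR 0 of 5 genes and 0% of all 18500 were called at 6 h of tunicamycin, and 0 of 5 and 0% at 2 h. None of the 5 had an unadjusted p under 0.05 or was called by DESeq2 in either comparison. The XBP1 intervals leave room for no change and for a fall in footprints per RNA of over 1 log2 unit.

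Thapsigargin had 1 library per time and assay, so its tests assume that the lone library varies like the other groups and have no replicate check. XBP1 RNA stood at 492 CPM after 2 h and 701 CPM after 6 h, against 70.2 to 105 CPM in untreated cells. The log2 change was 2.44 ± 0.32 at 2 h (5.41-fold, adjusted p = 0.0243) and 2.95 ± 0.32 at 6 h (7.71-fold, adjusted p = 0.00256). The 2 h value was above all 3 libraries of tunicamycin at 2 h (169.6 to 232 CPM) and within the range of tunicamycin at 6 h; the 2 drugs at 2 h were not tested against each other. With only the compared groups in the fit neither was called (adjusted p = 0.729 at 2 h and 0.286 at 6 h). The 2 h call was also lost without untreated replicate 2 (adjusted p = 0.122) or 3 (0.0883), with log2 changes of 2.49 and 2.55. ERN1 RNA was 23.7 CPM after 2 h and 48.9 CPM after 6 h, against 17.6 to 26.4 CPM in untreated cells. Its log2 changes of 0.12 ± 0.50 and 1.16 ± 0.48 were not called (adjusted p = 0.906 and 0.251). With the replicate number as a block, ERN1 at 6 h of thapsigargin was called at 1.71. Both thapsigargin RNA-Seq libraries are labelled replicate 1, and in CPM ERN1 was also lowest in replicate 1 of all 3 tunicamycin and untreated groups. For the untreated group this order depends on the TMM factor of 1.46 of replicate 1. ERN1 counts there were 3534, 2659 and 2645 in replicates 1, 2 and 3, of totals of 138227034, 122185746 and 101371822. By library total alone replicate 2 was lowest.

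The ligase genes in the thapsigargin libraries were near tunicamycin replicate 1. RTCB RNA was 167 CPM at 2 h and 179 CPM at 6 h, RTRAF 99.3 and 136 CPM, and DDX1 185 and 203 CPM. In tunicamycin replicates 2 and 3 at either time RTCB was 106 to 116 CPM, RTRAF 50.3 to 59.7 CPM and DDX1 135 to 173 CPM, so that the RNA ranges did not overlap. How many of all genes separate these libraries was not counted, and the second component of the same libraries already split them. In footprints, tunicamycin replicate 1 and thapsigargin overlapped tunicamycin replicates 2 and 3 for RTRAF (34.5 to 64.1 against 16.6 to 36.7 CPM). They did not for RTCB (113 to 142 against 70.5 to 96.4 CPM) or DDX1 (105 to 148 against 65.8 to 103 CPM). Against untreated cells the log2 changes at 6 h of thapsigargin were 0.84 ± 0.46, 1.36 ± 0.50 and 0.63 ± 0.34, and none was called (adjusted p 0.207 to 0.381). In RNA 1 of the 5 genes was called at 6 h of thapsigargin, where 1.79% of all genes were, and 1 of 5 at 2 h, where 0.0997% were.

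XBP1 footprints were 365 CPM after 2 h of thapsigargin and 636 CPM after 6 h, against 123 to 141 CPM in untreated cells. The log2 change at 6 h was 2.27 ± 0.35 (4.83-fold, adjusted p = 0.0111), a call lost without untreated replicate 3 (adjusted p = 0.0553) and with only the compared groups in the fit (0.166). At 2 h it was 1.47 ± 0.35 and not called by edgeR (unadjusted p = 0.00118, adjusted p = 0.347). DESeq2 called it (adjusted p = 0.0121), in a fit that called 190 genes against 16 by edgeR. ERN1 footprints were 27.7 CPM at 2 h and 63.2 CPM at 6 h, against 38.1 to 61.6 CPM untreated, with log2 changes of -0.73 ± 0.64 and 0.46 ± 0.60. In footprints 1 of 5 genes was called at 6 h, where 0.974% of all genes were, and 0 of 5 at 2 h, where 0.0824% were; at 2 h XBP1 was the only one of the 5 with an unadjusted p under 0.05. Translational efficiency of XBP1 was -0.55 ± 0.45 at 6 h and -0.81 ± 0.45 at 2 h; 0 of 5 genes were called by edgeR or DESeq2 or had an unadjusted p under 0.05, beside 0% of all genes at 6 h and 0.00541% at 2 h.

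Set directly against tunicamycin at 6 h, thapsigargin at 6 h differed by 0.50 ± 0.34 for XBP1 RNA (interval -0.25 to 1.25) and by -0.62 ± 0.52 for ERN1 RNA (interval -1.78 to 0.53). With the replicate number as a block the ERN1 difference was -0.05, and the log2 ratio of thapsigargin to tunicamycin replicate 1, the number both carry, was -0.09. For footprints the differences were 0.43 ± 0.37 (interval -0.37 to 1.23) and -0.40 ± 0.62 (interval -1.76 to 0.96). Of the 5 genes 0 were called in RNA, where 0% of all genes were, and 0 in footprints, where 0.0206% were; none had an unadjusted p under 0.05, and DESeq2 called none of the 5. These intervals do not show that the drugs act alike on either gene.

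**Figure D4:**
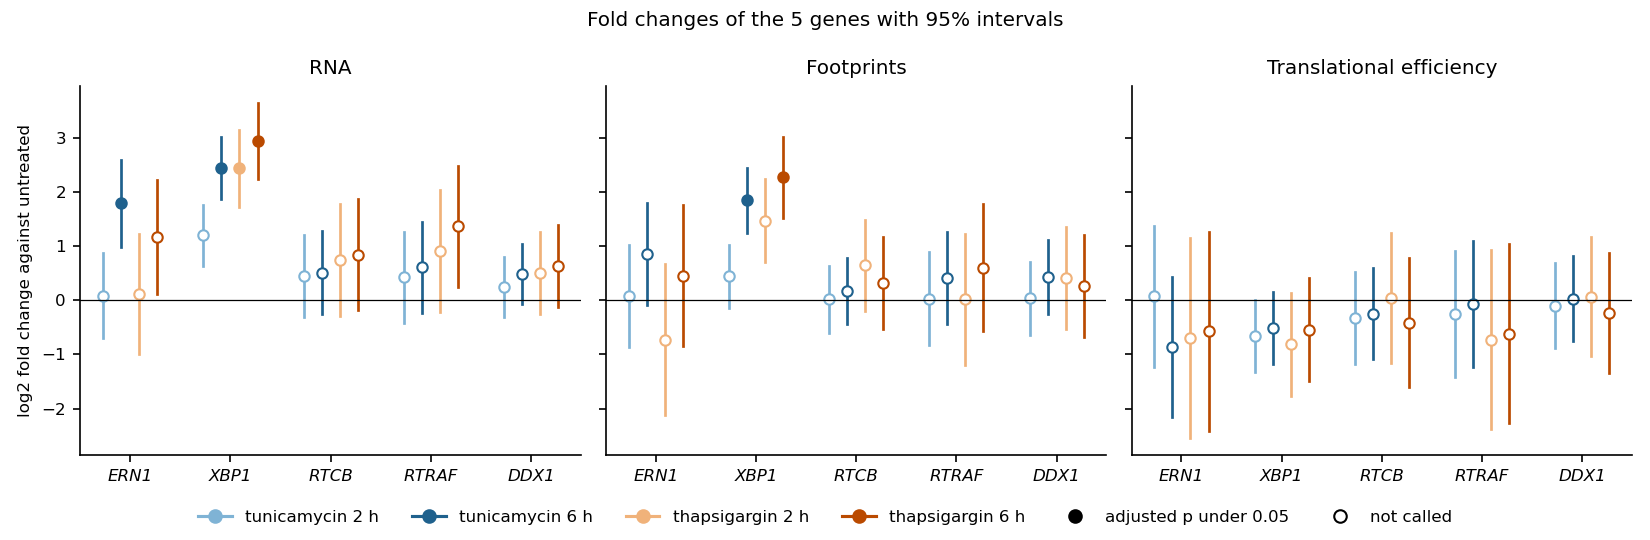
Log2 fold change against untreated cells (y axis) of the 5 genes in RNA, in footprints and in translational efficiency, by drug and time. Points are estimates with 95% intervals, filled where the adjusted p was under 0.05; the filled points are XBP1 RNA at 2.44 to 2.95 and footprints at 1.85 and 2.27, and ERN1 RNA at 1.79 after 6 h of tunicamycin.

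The other genes of the branch were read as lists. Of 4 further subunits or cofactors of the tRNA ligase complex 0 were called in RNA after 6 h of tunicamycin, where 1.50% of all genes were called. Their median log2 change was 0.54. FAM98A, a complex subunit, averaged 70.7 ± 11.9 CPM at 6 h of tunicamycin, against 43.5 ± 10.4 CPM in untreated cells (0.70 ± 0.26, adjusted p = 0.228). ZBTB8OS, which encodes archease, had a log2 change of 0.70 ± 0.34 (adjusted p = 0.308), and C2orf49, the subunit ashwin, by 0.38 ± 0.28 (0.449). Of 10 other genes of tRNA splicing, RNA end processing and decay 0 were called, beside the same 1.50% of all genes, with a median of 0.08. TSEN15, of the tRNA splicing endonuclease, had a log2 change of 0.88 ± 0.27 (adjusted p = 0.157), RTCA, the RNA cyclase, by 0.84 ± 0.28 (0.195), and CNP, a cyclic phosphodiesterase, by -0.63 ± 0.24 (0.230). All 4 complex genes and 6 of the 10 others had a log2 change above 0. With so small a share of all genes called, 0 calls by edgeR in lists this short say little about these genes. Over replicates 2 and 3 alone, where 19.4% of all genes were called, 2 of the 4 complex genes were called higher, and of the 10 others 2 were called higher and 3 lower.

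Of 12 IRE1 partners and regulators 3 were called higher in RNA after 6 h of tunicamycin, where 1.50% of all genes were called. None was called lower, and the median was 0.62. HSPA5, the ER chaperone BiP, which binds the lumenal domain of IRE1, averaged 11235 ± 3977 CPM at 6 h, against 885 ± 335 CPM in untreated cells (3.67 ± 0.52, adjusted p = 0.00782). SEL1L and SYVN1, the adaptor and ligase of ER-associated degradation that also turns over IRE1, rose by 2.58 ± 0.24 (adjusted p = 0.00106) and 2.59 ± 0.45 (adjusted p = 0.0218). The same 3 genes were called in footprints, at 3.37, 1.94 and 2.38, where 0.840% of all genes were. Chosen after their values were seen, TRAF2, MAP3K5, MAPK8 and MAPK9, through which IRE1 signals to JNK, had log2 changes of -0.17 to -0.02 in RNA, and none was called (adjusted p 0.791 to 0.979). ERN2, the second IRE1 gene of the genome, likewise chosen, had a log2 change of -0.76 ± 0.40 (adjusted p = 0.328). It was near 0 in RNA, at 0.283 ± 0.081 CPM at 6 h and 0.479 ± 0.167 CPM in untreated cells. Without untreated replicate 1, 5 of the 12 were called, where 3.09% of all genes were.

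Of 20 genes reported as XBP1 targets 14 were called higher in RNA after 6 h of tunicamycin, where 1.50% of all genes were called. None was called lower, and the median was 1.82. HERPUD1, a membrane protein of ER-associated degradation, had 962 to 1121 CPM at 6 h, against 36.7 to 42.6 CPM in untreated cells (4.68 ± 0.25, adjusted p = 7.54e-05). DNAJB9, the cochaperone ERdj4 that recruits BiP to IRE1, averaged 357 ± 52.8 CPM, against 18.5 ± 2.27 CPM untreated (4.27 ± 0.25, adjusted p = 7.54e-05). DNAJC3, the cochaperone p58IPK, rose by 2.57 ± 0.24 (0.00106) and SEC24D, a coat subunit of ER export vesicles, by 2.48 ± 0.42 (0.0189). Those not called were SEC61G, SEC61B, DERL1, SSR1, EDEM2 and SPCS3, at 0.69 to 1.43 (adjusted p 0.0607 to 0.198). In footprints 11 of the 20 were called, where 0.840% of all genes were, with a median of 1.48. At 2 h of tunicamycin 1 of 20 was called in RNA, HERPUD1 (2.77 ± 0.23, adjusted p = 0.00355), and 0 of 20 in footprints, with medians of 0.32 and -0.08. Over all genes 0.00973% were called there in RNA and 0% in footprints. After thapsigargin 16 of 20 were called in RNA at 6 h and 3 at 2 h, HERPUD1, DNAJB9 and DNAJB11. In footprints 8 were called at 6 h and 1 at 2 h. The shares of all genes called were 1.79% at 6 h and 0.0997% at 2 h in RNA, and 0.974% and 0.0824% in footprints. With only the compared groups in the fit, 0 of all genes were called after thapsigargin in any of these 4 comparisons, so none of these calls remained. Translational efficiency of the 20 genes at 6 h of tunicamycin had a median of -0.34, beside -0.08 over all genes, with 0 called. Many of these genes are also reported targets of ATF6 or ATF4, and a gene count does not tell which factor acted. Without untreated replicate 1, 14 of the 20 were called in RNA at 6 h of tunicamycin, where 3.09% of all genes were.

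Sensors and factors of the other branches were read beside them. Of 6 such genes 3 were called higher in RNA after 6 h of tunicamycin, where 1.50% of all genes were called, with a median of 1.28. EIF2AK3, the sensor PERK, averaged 118 ± 16.5 CPM, against 24.4 ± 3.03 CPM in untreated cells (2.27 ± 0.24, adjusted p = 0.00161). ATF4, the factor whose translation PERK favours, rose by 1.63 ± 0.30 (adjusted p = 0.0256), and DDIT3, the factor CHOP, by 4.85 ± 0.52 (0.00161). ATF6, the third sensor, had a log2 change of 0.89 ± 0.21 (adjusted p = 0.0655). In footprints EIF2AK3 (1.59) and DDIT3 (4.52) were called, where 0.840% of all genes were. Without untreated replicate 1, 4 of the 6 were called in RNA, where 3.09% of all genes were. Of 8 glial markers 1 was called in RNA at 6 h, where 1.50% of all genes were. It was GFAP, at 3.01 ± 0.319 CPM after tunicamycin and 1.36 ± 0.220 CPM in untreated cells (adjusted p = 0.0493). The median log2 change of the 8 was -0.47, with 3 above 0. SOX2 averaged 11.5 ± 3.93 CPM after tunicamycin and 30.4 ± 23.2 CPM in untreated cells, S100B 118 ± 37.6 and 208 ± 89.0 CPM, and SLC1A3 2.17 ± 0.222 and 13.2 ± 17.7 CPM, and none of these was called. In untreated replicate 1 SLC1A3 was 33.7 CPM and S100B 311 CPM, against at most 5.77 and 210.1 CPM in the other RNA-Seq libraries. VIM was 451 CPM there, against at least 1226.5 CPM in the others. The 8 markers summed to 2229 to 2598 CPM after 6 h of tunicamycin and 1088 to 2944 CPM in untreated cells; their part in these results was not tested.

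**Figure D5:**
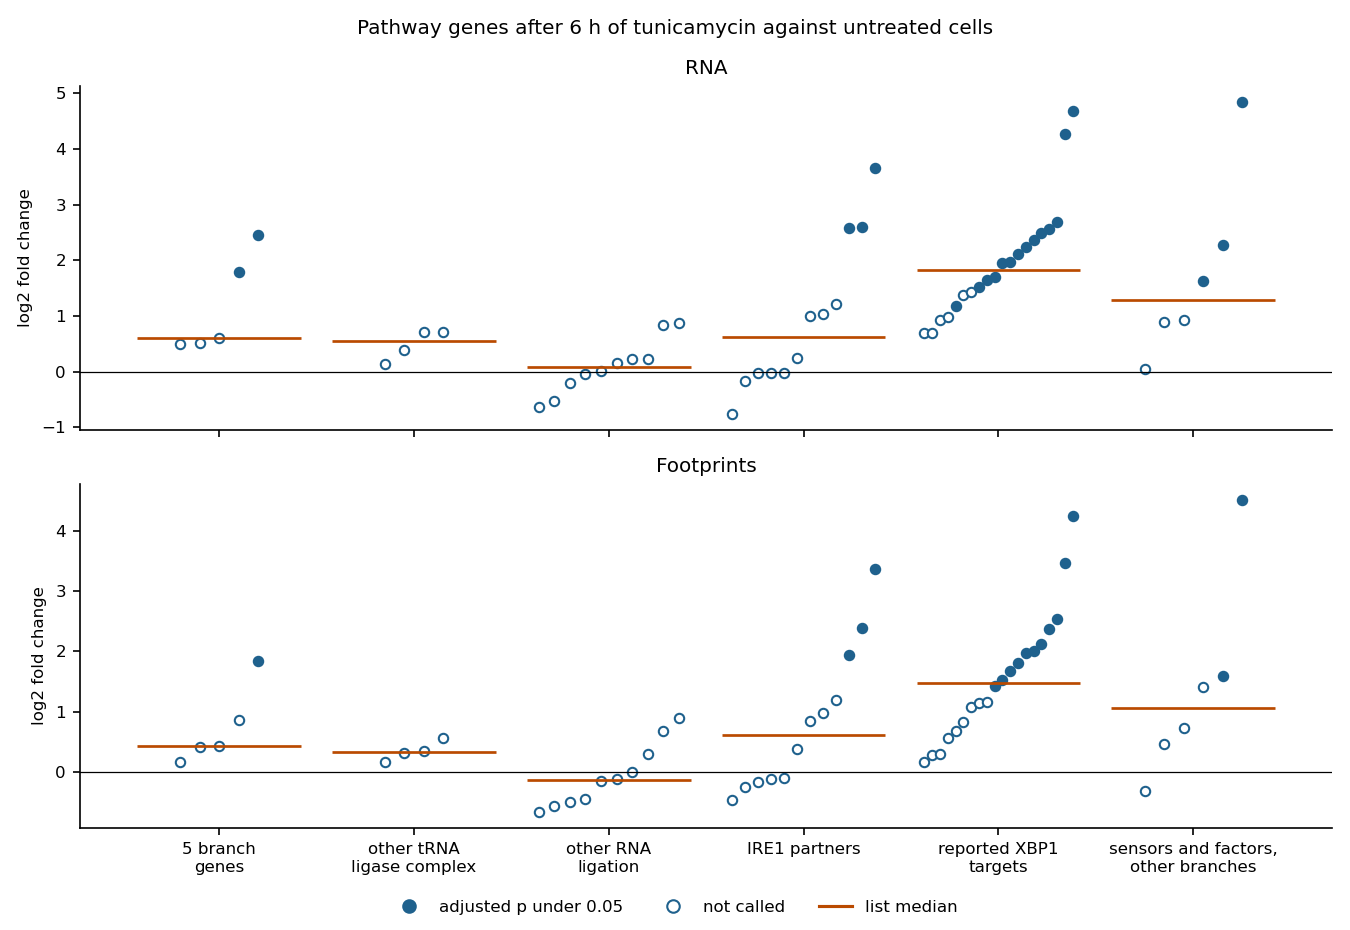
Log2 fold change (y axis) of 6 h of tunicamycin against untreated cells for each gene of 6 lists, in RNA (top) and footprints (bottom). Points are genes in order of size, filled where the adjusted p was under 0.05, and lines are list medians. In RNA 14 of 20 reported XBP1 targets and 0 of 4 further ligase complex genes are filled, where 1.50% of all genes were called.

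Genes whose RNA followed each member most closely were sought among 17501 genes over the 11 RNA-Seq libraries, as a description. The 3 highest Pearson correlations of log2 CPM with XBP1 were those of DNAJB11 (r = 0.992), TICAM2-AS1 (0.992) and SLC38A2 (0.988). With ERN1 they were XBP1P1 (0.984), the processed copy of XBP1, ADM2 (0.982) and MTCO1P28 (0.980). For RTCB they were VBP1, CHCHD3 and PSMC3 (0.990 to 0.991), for RTRAF LAP3, TPRKB and WASHC3 (0.994 to 0.996), and for DDX1 PSMB7, PSMD8 and HARS1 (0.988 to 0.994). Without untreated replicate 1 these 15 values were 0.975 to 0.997. Among the members RTCB and DDX1 were most alike (r = 0.947), then RTCB and RTRAF (0.892) and RTRAF and DDX1 (0.845). XBP1 had r = 0.771 with DDX1, 0.693 with ERN1, 0.628 with RTCB and 0.615 with RTRAF, and ERN1 had 0.0232 to 0.345 with the 3 ligase genes. These libraries share treatments, scaling and the replicate 1 split, so the correlations are no sign of shared control.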

How the data were processed

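Raw read counts per Ensembl gene entry were used as deposited; the submitters' processing notes name STAR 2.5.4b, HTSeq, DESeq2 and GRCh38, without the annotation or a strand setting. Counts were tested with edgeR 4.0.16 (R 4.3.3; quasi-likelihood, robust, TMM factors, filterByExpr with a minimum count of 10), with all groups of an assay in 1 fit, or all 22 libraries for translational efficiency, and Benjamini-Hochberg adjustment over all genes tested. Every printed p comes from that test unless DESeq2 1.42.0 is named. Fits were tested on simulated data. The 5 genes and the lists were chosen with earlier results of these data known. Named are the 5 genes, up to 3 genes per list with the smallest unadjusted p in RNA at 6 h of tunicamycin, a few further genes set by name, and the 3 genes most correlated with each member. Deviations of same-numbered libraries from their group means were correlated. In RNA the values were 0.109 to 0.226 between 6 h tunicamycin and untreated and 0.0757 to 0.238 between 2 h and untreated. Between 6 h and 2 h they were 0.414 to 0.676, and in Ribo-Seq 0.122 to 0.407. Libraries of different number were not correlated, so no level is set above which numbers count as paired. Alternatives were other scalings and filters, DESeq2, a replicate block, fewer groups and left-out libraries.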

Additional observations from a re-analysis of the deposited data

How the results depend on the processing

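Of 1035 fold changes recomputed for 80 gene results, no called one changed sign, 22 lost a call and 22 gained one; 87 uncalled ones changed sign. After 6 h of tunicamycin 2 members were called in RNA, but 1 with library size alone (ERN1 lost) and 1 in each fit without a library (range 1 to 1). At 2 h the count of 0 became 1 (XBP1) by DESeq2, with replicates 2 and 3 only, and with the replicate block without untreated replicate 1, an alternative chosen after seeing the data. The 4 calls over all genes there became 68 by DESeq2 and 1269 with replicates 2 and 3 only. For 6 h against 2 h in RNA the count of 0 became 1 with RLE factors, library size alone, no filter, a stricter filter or the compared groups only, 2 by DESeq2 or with the replicate block, and 3 with replicates 2 and 3 only (25.1% of all genes called) or with the added block (10303 genes called, against 305). For thapsigargin in RNA the count of 1 became 2 with the replicate block at 6 h and with the added block at both times, 0 with the compared groups only at both times, and at 2 h 0 to 1 without a library. In footprints the count of 1 was 0 to 1 without a library at 6 h of tunicamycin against untreated or 2 h and at 6 h of thapsigargin, and 0 with the compared groups only for the last 2; at 2 h of thapsigargin the count of 0 became 1 by DESeq2. The cause was not tested. Over all genes the RNA calls at 6 h of tunicamycin were 617, with 187 to 7439 under alternatives (2485 by DESeq2), and those in footprints 163, with 34 to 745. The replicate block gave 1437 and 247 genes for thapsigargin in RNA at 6 h and 2 h, against 737 and 41 without it. Between 2 h tunicamycin and untreated RNA the correlations of same-numbered libraries were 0.0757 to 0.238, and the block gave 8 genes against 4. The lowest member count was 69 footprints, of RTRAF.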

Other observations

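The spacing of CCAAT, any 9 bases and CCACG found before XBP1 was used to list genes, XBP1 itself among them, chosen after the results were seen and given with no test. Of 25 gene symbols with such a window, 21 were tested in RNA after 6 h of tunicamycin, and 8 were called higher and none lower, with a median log2 change of 0.90; 1.50% of all genes were called. These were CRELD2, ERO1B, FICD, HSP90B1, HSPA5, SERP1, TRIM5 and XBP1, of which HSPA5 and HSP90B1 encode the ER chaperones BiP and GRP94. In footprints 16 were tested and 6 called higher, with a median of 1.11, where 0.840% of all genes were called.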
